A study of Mus musculus with 16 samples.

Results

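The Lrrc8 genes encode the subunits of the volume-regulated anion channel, and their transcripts were followed here in the cortex of 5xFAD mice fed rapamycin or vehicle chow. The family was taken by gene name from the count table and has 5 members (Lrrc8a, Lrrc8b, Lrrc8c, Lrrc8d and Lrrc8e) among the 47593 genes listed. Of these, 4 passed the filter on low counts, beside 16553 genes in all, and Lrrc8e did not. The 16 libraries comprised 4 groups of 4, being the vehicle and rapamycin diets in females and in males. All mice were heterozygous for the 5xFAD transgenes on a mixed C57BL/6-SJL background, in which the neuronal Thy1 promoter drives human APP with the Swedish, Florida and London mutations and human presenilin 1 with a pair of familial mutations. Control mice carried the same transgenes and ate chow with the empty carrier, and no wild-type group was among the libraries. Rapamycin, an inhibitor of the kinase mTOR, was given in the chow from 2 to 5 months of age, when cortex was collected. The study text speaks of cortical samples pooled for sequencing while the deposited design names 4 biological replicates per group, so p-values measure the spread between these libraries.

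Swelling cells open this channel, and chloride and small organic osmolytes such as taurine leave with water following, which restores cell volume. A channel is a hexamer that needs LRRC8A together with at least 1 partner among LRRC8B to LRRC8E, and the partner sets what passes: LRRC8D favours taurine, other uncharged osmolytes and some drugs, and LRRC8C and LRRC8E can carry the second messenger cGAMP. In brain the channel is known in astrocytes, neurons and microglia as a route of glutamate, GABA and ATP release.

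Libraries held 16393501 to 20593089 counted read pairs, and levels are given as CPM, the read pair count scaled to library size with TMM factors. Markers of astrocytes, microglia, oligodendrocytes and glutamatergic and GABAergic neurons passed the filter, 10 of 10 for each, as did those of choroid plexus. These cell types are not particular to cortex, so the cortex label was not tested by this. The library labelled male rapamycin 4 held 511.6 CPM of Xist and 0 CPM summed over Y-linked genes. The other 7 male libraries held at most 1.01 CPM of Xist and 104.1 to 132.6 CPM of Y-linked genes. Female libraries held 490.8 to 1302 CPM of Xist, so its reads match the female libraries and not its male label. It was kept as labelled in the male means, the sex term and the sex difference, and the male fold changes below are also given without it. The summed choroid plexus markers reached 1976 CPM in male vehicle 4 against 15.9 to 334.4 in the other 15 libraries. Batch is the label of that name, with 11 libraries in batch 1 and 5 in batch 2.

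Lrrc8a stands alone on chromosome 2 (GRCm38, chr2:30237715-30263790, plus strand), whereas Lrrc8b (chr5:105415775-105490074), Lrrc8c (chr5:105519388-105613018) and Lrrc8d (chr5:105699969-105832436) follow each other on the plus strand of chromosome 5, with 29314 and 86951 bases between them. Lrrc8e lies on chromosome 8 (chr8:4226827-4237470, plus strand). The promoter windows of the 3 members whose transcripts differed most between diets are shown so that the letters upstream of the solitary gene can be read beside those of the cluster. They are from RefSeq on build GRCm38.p6, plus strand, and run from 250 to 61 bases before the RefSeq start. Each window ends before the first base of its own gene in the count table. The Lrrc8a window lies within the exon of 1700084E18Rik (chr2:30236795-30238223), a gene listed on the opposite strand. Capitals mark the letters TGACGTCA (the cAMP response element), CACGTG (the E-box) and GGGCGG or its reverse CCGCCC (the GC box).
Lrrc8a, chr2:30237519-30237708: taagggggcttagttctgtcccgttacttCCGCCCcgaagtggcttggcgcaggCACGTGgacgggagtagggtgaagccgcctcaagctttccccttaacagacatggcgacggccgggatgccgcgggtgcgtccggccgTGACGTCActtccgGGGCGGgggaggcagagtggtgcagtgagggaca
Lrrc8b, chr5:105415525-105415714: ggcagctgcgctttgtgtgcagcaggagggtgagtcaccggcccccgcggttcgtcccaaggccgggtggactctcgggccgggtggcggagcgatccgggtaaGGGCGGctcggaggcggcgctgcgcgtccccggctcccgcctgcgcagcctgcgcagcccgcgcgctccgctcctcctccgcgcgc
Lrrc8d, chr5:105699719-105699908: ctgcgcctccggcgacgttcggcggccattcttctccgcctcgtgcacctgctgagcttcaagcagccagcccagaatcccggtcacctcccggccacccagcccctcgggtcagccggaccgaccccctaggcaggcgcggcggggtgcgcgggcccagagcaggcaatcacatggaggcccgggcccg

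The Lrrc8a window held 1 full cAMP response element at 108 bases before the start, 1 E-box at 196 bases and GC boxes at 221 and 94 bases. On either strand, the cAMP response element was in 0.7% of the 32851 windows of the same length over all genes, the E-box in 4.03% and the GC box in 22.8%. All 3 motifs contain a CpG, and their shares among windows as rich in CpG as these were not counted. The Lrrc8b window held 1 GC box at 146 bases, and the Lrrc8d window printed above held none of these letters. At the other RefSeq start of Lrrc8d the window, not printed, held GC boxes at 119 and 90 bases. The Lrrc8c window, also not printed, held GC boxes at 143 and 107 bases. CCAAT and TATAAA, with matches in 26.7% and 8.73% of all windows, were in none of the members' windows, whichever of the 2 RefSeq starts of Lrrc8d was used. All 3 printed windows were rich in CpG, with 18 CpG in Lrrc8a, 28 in Lrrc8b and 20 in Lrrc8d against a median of 4, whereas Lrrc8e, the member with almost no reads, had 3. These motifs were chosen after the sequences were seen, none overlaps another in these windows, and a match describes letters, not a bound factor.

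What counts as an Lrrc8a read pair is narrower than the gene. The count table lists a second gene on the same strand, Gm28035, whose 13 exons run from Lrrc8a into Phyhd1, and it shares 2853 of the 4308 exon bases of Lrrc8a. A further 91 bases lie opposite 1700084E18Rik, an antisense gene, and counting ignored strand. All 2430 coding bases of Lrrc8a were shared, and the 1364 bases that belong to no other listed gene form 1 stretch, chr2:30262427-30263790, in the 3′ untranslated part of the last exon. Read pairs that fall wholly within bases of 2 genes are not assigned under the settings in the file header. Gm28035 received at most 4 read pairs in a library, and 1700084E18Rik averaged 0.522 CPM. Lrrc8a values are thus values of the end of its 3′ untranslated region plus pairs that reach it, and are lower than those of the whole transcript would be. Lrrc8b, Lrrc8c and Lrrc8e share no exon base with another gene, and Lrrc8d shares 218 of 12573 with its antisense gene Lrrc8dos, which had at most 6 read pairs in a library. Between members, the longest exact stretch shared by the longest coding transcripts was 30 bases for Lrrc8b with Lrrc8c and 26 bases for Lrrc8a with Lrrc8b.

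**Figure D1:**
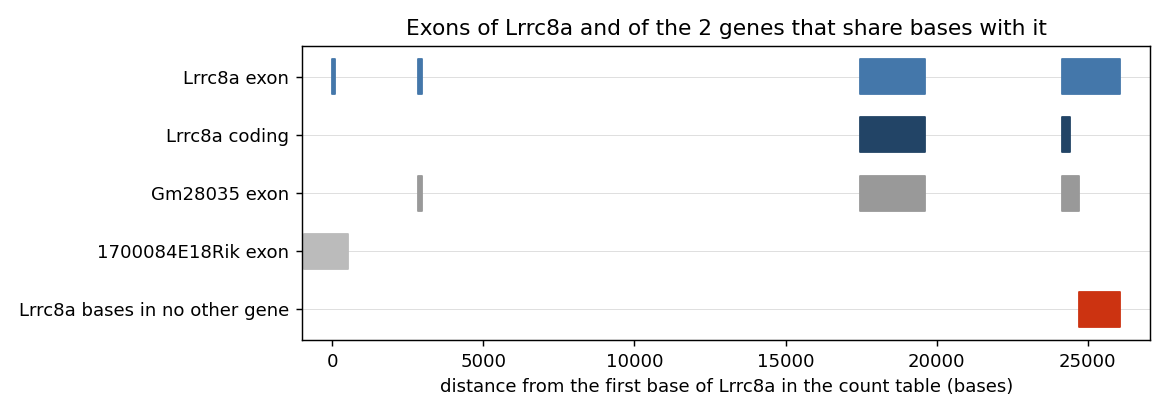
Exons of Lrrc8a, its coding part, the exons of Gm28035 and 1700084E18Rik near it, and the Lrrc8a bases that no other gene holds, against distance in bases from the first base of Lrrc8a. The last row is a single block of 1364 bases at the right end, beyond the coding part, and every coding base lies under a Gm28035 exon.

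Lrrc8b was the most abundant member. Over all 16 libraries it averaged 18.2 ± 3.31 CPM per kilobase of exon (SD, n = 16), against 4.41 ± 0.578 for Lrrc8c, 3.48 ± 1.28 for Lrrc8a and 3.04 ± 0.375 for Lrrc8d. The last 3 overlap within their spread, and their order depends on the length used. Per kilobase of bases in no other gene Lrrc8a reached 10.99, and per kilobase of the longest coding transcript Lrrc8d reached 9.74. The Lrrc8d length in the count table is that of all its transcripts merged, and GENCODE M21 lists 10, of which 5 are coding. In these means Lrrc8b ranked first and Lrrc8e last under all 3 lengths. Single libraries could differ. By bases in no other gene, the share of the summed family in rapamycin libraries ran up to 49.5% for Lrrc8a and down to 32.3% for Lrrc8b. Lrrc8e, whose protein is known from epithelia, had 9 read pairs over the 16 libraries, at most 2 in one, and none in 9 libraries. In the 4 female rapamycin libraries it had 0 read pairs, which allows up to 0.0397 CPM over them, counting error only. With no count filter its adjusted p between diets was 0.563 in edgeR, and a difference was not detectable at this depth.

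Transcripts of the obligatory subunit were more abundant with rapamycin. In female vehicle libraries Lrrc8a was at 10.85, 13.12, 13.77 and 9.858 CPM, and in female rapamycin libraries (replicates 1, 2, 4 and 5) at 24.49, 24.63, 11.01 and 12.65 CPM. In male vehicle libraries it was at 13.38, 12.46, 13.26 and 8.444 CPM, and in male rapamycin libraries at 14.82, 26.8, 16.71 and 13.54 CPM. The 2 highest female libraries and 1 male library stood far above the rest. Female diets overlapped, and the male diets were barely apart, at 13.54 CPM in the library labelled male rapamycin 4 against 13.38 in male vehicle 1. How many of all genes separate the male diets was not counted, and no sex difference is read from this. The female means were 11.9 ± 1.85 CPM with vehicle and 18.2 ± 7.38 with rapamycin, and the male means were 11.9 ± 2.33 and 17.97 ± 6.03 (SD, n = 4 each). Without the library labelled male rapamycin 4 the male rapamycin mean was 19.4 ± 6.44 CPM (SD, n = 3). These values rest on 151 to 480 read pairs per library.

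With sex and batch as terms, the log2 fold change of Lrrc8a was 0.66 (SE 0.122), a fold of 1.58. It was 0.71 (SE 0.178) in females and 0.60 (SE 0.176) in males. The study named Lrrc8a as a rising gene from these same samples, so these values describe it, are given with no p, and are no independent evidence of its direction. A call needs an adjusted p below 0.05 and a change of 1.5-fold or more, and of the 5 members 1 was called, Lrrc8a. Since the study had picked Lrrc8a out on these samples, nothing is read from that count. Over all genes, 2.26% were called, 0.689% as higher with rapamycin. The bulk samples cannot tell more cells of a kind that express a gene from more RNA in each cell.

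**Figure D2:**
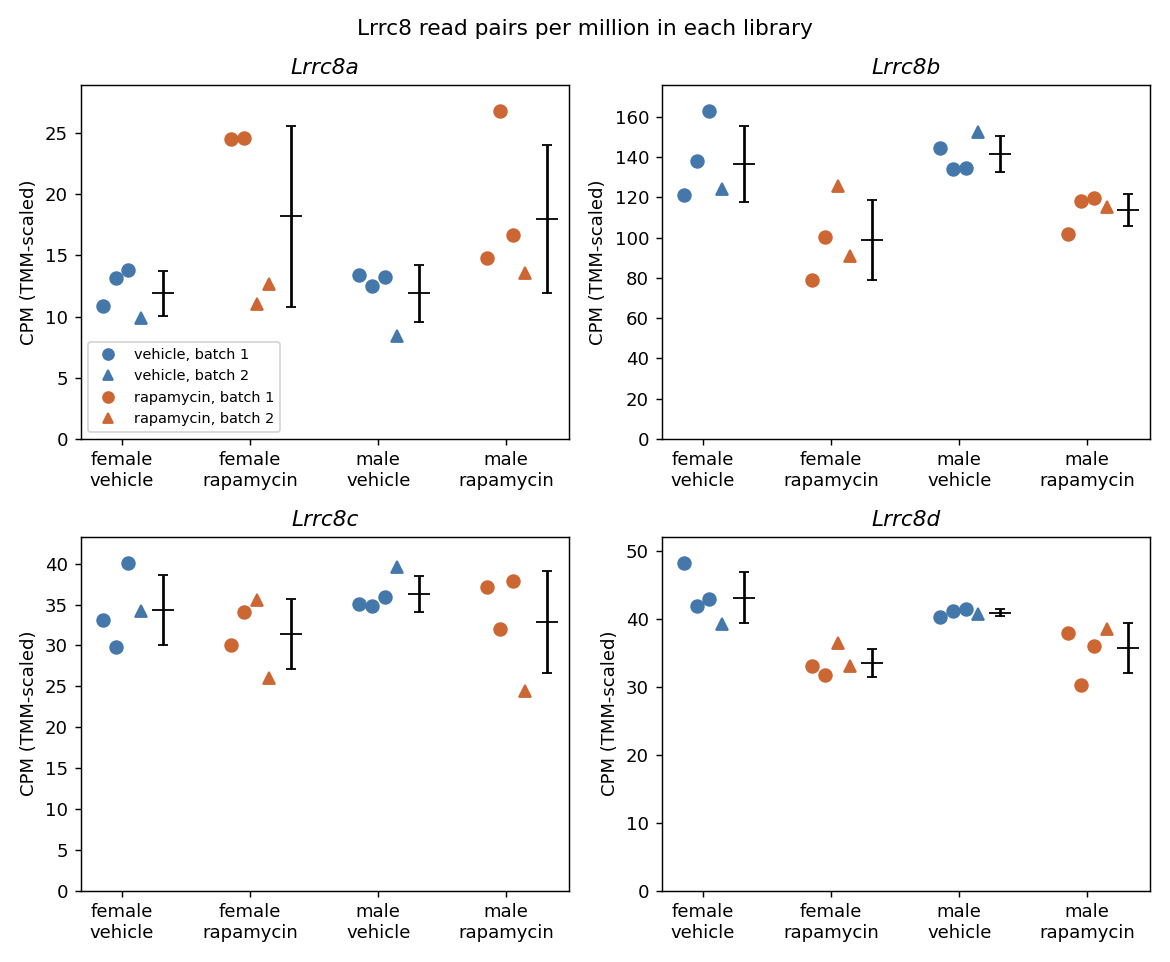
CPM of Lrrc8a, Lrrc8b, Lrrc8c and Lrrc8d in each of the 16 libraries by group, with circles for batch 1, triangles for batch 2, and the group mean with its SD in black (n = 4 each). Lrrc8a has 3 rapamycin libraries from 24.49 to 26.8 CPM above all others, and for Lrrc8d all 8 rapamycin libraries sit below all 8 vehicle libraries.

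Within batch 1, Lrrc8a was at 14.82 to 26.8 CPM in the 5 rapamycin libraries and at 10.85 to 13.77 in the 6 vehicle libraries. Within batch 2 it was at 11.01 to 13.54 in the 3 rapamycin libraries and at 8.444 and 9.858 in the 2 vehicle libraries. How many of all genes separate the diets within a batch was not counted. The gene was picked on these samples, so these ranges are descriptions. The difference in mean log2 CPM was 0.71 in batch 1 and 0.43 in batch 2. Across batches the diets overlapped, with 5 of 8 rapamycin libraries above the highest vehicle library, since Lrrc8a also differed between batches: it was lower in batch 2 by a log2 fold change of -0.67 (SE 0.136, adjusted p = 0.00137, edgeR). It was the 1 member called between batches, where 12.9% of all genes were called. Lrrc8b (0.07), Lrrc8c (-0.09) and Lrrc8d (0.01) had small batch values, with adjusted p of 0.636, 0.539 and 0.93 in edgeR, and that of Lrrc8d changed sign under RLE scaling, DESeq2 and other settings. Without the batch term the Lrrc8a diet value was 0.60 and was no longer called.

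The 3 libraries with the most Lrrc8a also stood apart in the make-up of their RNA. Female rapamycin 1 and 2 and male rapamycin 2 had 6.88%, 6.98% and 6.99% mitochondrial read pairs, against 2.64% to 5.47% in the other 13. Their exon length slopes, the change in log2 CPM per doubling of exon length over all tested genes, were -0.12, -0.13 and -0.12, and those of the other 13 were -0.033 to 0.10, so short genes had more of their reads. Median slopes were 0.0255 in vehicle and -0.0243 in rapamycin libraries. With the slope as a covariate the Lrrc8a log2 fold change was 0.24 (SE 0.147), with the mitochondrial share 0.26 (SE 0.130), and without these 3 libraries 0.35 (SE 0.109), and in none of these was it called. Under either covariate 0 of 16553 genes were called, although 965 and 1318 genes had an unadjusted p under 0.05. Summed oligodendrocyte markers were 6582, 10200 and 7099 CPM in the same 3 libraries, 3966 to 7086 in the other 5 rapamycin libraries and 3972 to 6430 with vehicle. The library at 7086 was female rapamycin 4, of batch 2, which had 11.01 CPM of Lrrc8a. Summed GABAergic neuron markers were 1174, 1099 and 1201 CPM in the 3 libraries and at most 1079 in the other 13. Not every marker sum set them apart. The slope and the mitochondrial share move with Lrrc8a, and the part of these or of any marker sum in the result was not tested.

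**Figure D3:**
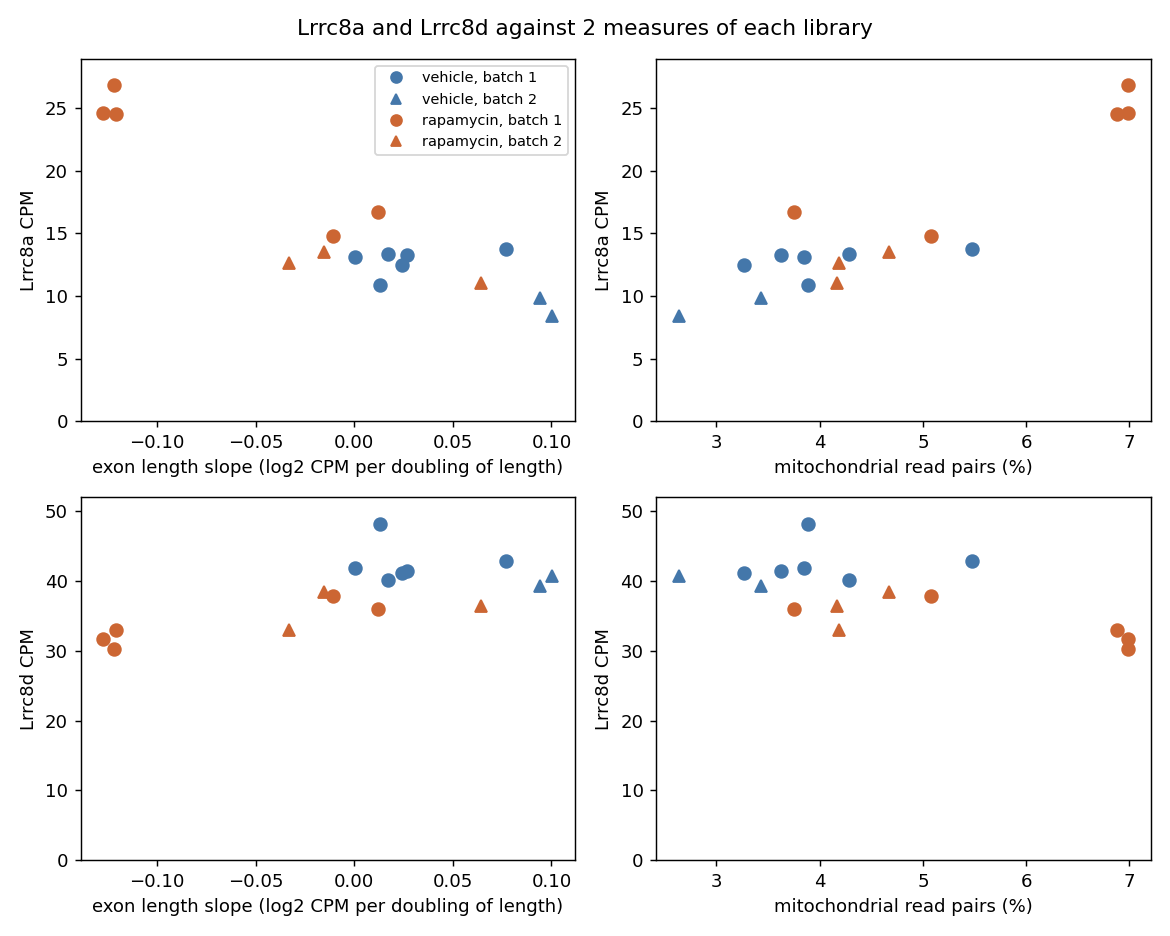
CPM of Lrrc8a (top) and Lrrc8d (bottom) in each library against the exon length slope (left) and the percent of mitochondrial read pairs (right), in blue for vehicle and orange for rapamycin, with triangles for batch 2. The 3 orange circles at slopes near -0.12 and shares near 7% carry the highest Lrrc8a and are among the lowest Lrrc8d values.

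Lrrc8b, the most abundant partner, was lower with rapamycin. It was at 121.3, 137.9, 162.8 and 124.0 CPM in female vehicle, and at 78.87, 100.2, 125.7 and 90.79 CPM in female rapamycin libraries. It was at 144.6, 134.1, 134.5 and 152.5 CPM in male vehicle, and at 102.0, 118.0, 119.8 and 115.2 CPM in male rapamycin libraries. Of the 8 rapamycin libraries 7 were below the lowest vehicle library, and female rapamycin 4 was the exception. The log2 fold change was -0.40 (SE 0.092, 95% interval -0.59 to -0.21, adjusted p = 0.0159, edgeR), a ratio of 0.758, which is short of the fold threshold. It was -0.49 in females (adjusted p = 0.0709) and -0.31 in males (adjusted p = 0.373) in edgeR, and -0.43 within batch 1 and -0.33 within batch 2 as a difference in mean log2 CPM. The adjusted p stayed under 0.05 when any 1 library was left out, and was 0.922 with the slope as a covariate and 0.567 with the mitochondrial share, where the value itself was -0.20 and -0.41.

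Lrrc8d, the partner tied to taurine and other uncharged osmolytes, separated the diets completely. Female vehicle libraries were at 48.18, 41.91, 42.88 and 39.25 CPM, and female rapamycin libraries at 32.96, 31.65, 36.45 and 32.95 CPM. Male vehicle libraries were at 40.19, 41.14, 41.45 and 40.71 CPM, and male rapamycin libraries at 37.88, 30.3, 36.02 and 38.41 CPM. All 8 rapamycin libraries (30.3 to 38.41) were below all 8 vehicle libraries (39.25 to 48.18), which held for 0.362% of all tested genes. The library labelled male rapamycin 4, at 38.41 CPM, was the rapamycin library nearest to vehicle. The log2 fold change was small, at -0.28 (SE 0.071, 95% interval -0.43 to -0.13, adjusted p = 0.0208, edgeR), a ratio of 0.823. Values were -0.37 in females (adjusted p = 0.0709) and -0.20 in males (adjusted p = 0.427) in edgeR. Without female rapamycin 1 or female rapamycin 2 the adjusted p rose to 0.0539 and 0.053, with values of -0.27 and -0.26, and with the slope or mitochondrial covariate the value was -0.15 or -0.17 (adjusted p = 0.923 and 0.664).

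Lrrc8c, a partner able to carry cGAMP, did not pass the test. Female vehicle libraries were at 29.86 to 40.1 CPM and female rapamycin at 26.07 to 35.62, and male vehicle libraries were at 34.83 to 39.59 and male rapamycin at 24.46 to 37.89. The groups overlapped, and the lowest value was that of the library labelled male rapamycin 4. The log2 fold change was -0.13 (SE 0.095, 95% interval -0.33 to 0.07, adjusted p = 0.381, edgeR). That interval excludes a change of 1.5-fold either way but not a change of the size seen for Lrrc8d. It was near 0 within batch 1 (-0.02) and -0.38 within batch 2. With the slope as a covariate it turned to 0.13 (adjusted p = 0.954, edgeR), and with the mitochondrial share it was -0.09.

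By adjusted p alone, Lrrc8b and Lrrc8d passed as lower and Lrrc8c did not pass, where 13.3% of all tested genes passed. Lrrc8a also passed, but the study had picked it on these samples, so no share of the family is read from these results. Without the batch term none of Lrrc8a, Lrrc8b and Lrrc8d passed, with adjusted p of 0.058 for Lrrc8b and 0.0691 for Lrrc8d in edgeR. With the library labelled male rapamycin 4 and male vehicle 4 both left out, the log2 fold changes were 0.66 for Lrrc8a, -0.39 for Lrrc8b (adjusted p = 0.0447), -0.06 for Lrrc8c (adjusted p = 0.722) and -0.30 for Lrrc8d (adjusted p = 0.0395) in edgeR.

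**Figure D4:**
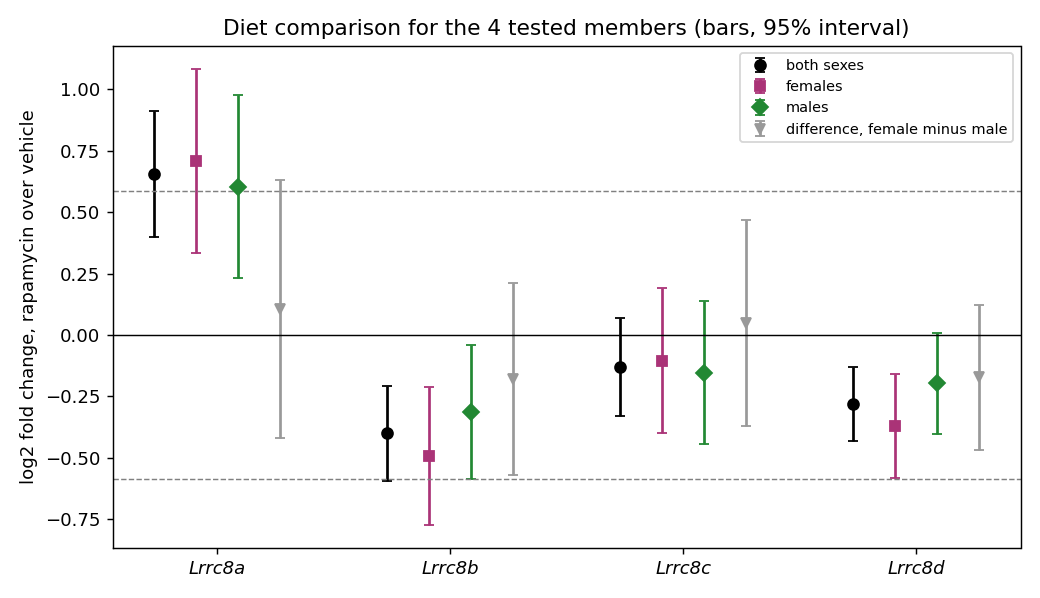
Log2 fold change of rapamycin over vehicle for the 4 tested members, in both sexes together, in each sex, and as the female minus male difference, with 95% intervals and dashed lines at a 1.5-fold change. Lrrc8a lies above 0 and Lrrc8b and Lrrc8d below it for both sexes together, and all 4 intervals of the sex difference include 0.

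In edgeR no member was called within 1 sex, where the share of all genes called was 0.0121% for females and 0% for males. Calls within a sex depended on the tool and filter, since Lrrc8a was called in females with DESeq2 and, with no count filter, in both sexes. The female minus male difference in log2 fold change was 0.11 for Lrrc8a (95% interval -0.42 to 0.63), -0.18 for Lrrc8b (-0.57 to 0.21), 0.05 for Lrrc8c (-0.37 to 0.47) and -0.17 for Lrrc8d (-0.47 to 0.12), each with an adjusted p of 0.999 in edgeR. Over all genes 0% passed this test with 360 at an unadjusted p under 0.05, and DESeq2 called 25, or 62 without the library labelled male rapamycin 4. In females 3818 genes had an unadjusted p under 0.05 and DESeq2 called 568, and in males 1990 had one and DESeq2 called 84, or 38 without the library labelled male rapamycin 4. Without that library Lrrc8a was no longer called in males with no count filter. For Lrrc8b, Lrrc8c and Lrrc8d these intervals reach beyond the size of the diet difference itself. Without the library labelled male rapamycin 4, the male log2 fold changes were 0.56 for Lrrc8a, -0.29 for Lrrc8b, -0.02 for Lrrc8c and -0.24 for Lrrc8d, of which none was called, and the sex differences were 0.17, -0.20, -0.11 and -0.11. Between female and male vehicle libraries the members differed by 0.02 (Lrrc8a), -0.05 (Lrrc8b), -0.08 (Lrrc8c) and 0.08 (Lrrc8d) on the log2 scale, each with an adjusted p of 0.999 in edgeR, and 0.0121% of all genes were called. These vehicle values do not use the library labelled male rapamycin 4 in their group means, and the first 3 changed sign when some single libraries were left out.

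The make-up of the family differed between diets as far as transcripts can show it. Of the summed CPM per kilobase of the 5 members, Lrrc8a made up 8.81 ± 1.32% in vehicle and 15.6 ± 5.28% in rapamycin libraries (SD, n = 8 each), and Lrrc8b 65.7 ± 1.80% and 58.5 ± 5.30%. Lrrc8c made up 14.7% and 15.6% and Lrrc8d 10.7% and 10.3%. The ratio of Lrrc8a to the sum of its partners was 0.0968 ± 0.0156 in vehicle and 0.189 ± 0.0763 in rapamycin libraries, and was highest in female rapamycin 1, at 0.311. The sum over the family was 31.4 ± 2.49 CPM per kilobase in vehicle and 27.0 ± 2.72 in rapamycin libraries. In the 3 libraries of lowest slope this ratio was 0.258 to 0.311, and in the other 5 rapamycin libraries it was 0.137 ± 0.023. With only the bases in no other gene as length, the Lrrc8a share was 23.3 ± 3.04% in vehicle and 36.1 ± 9.14% in rapamycin libraries, and the family sums were 37.4 ± 2.97 and 36.1 ± 4.56 CPM per kilobase. With the longest coding transcript as length, Lrrc8d made up 27.4% and 26.5% and Lrrc8b 52.6% and 47.1%. These shares restate the levels above, carry no test, and say nothing of protein or channels.

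Across libraries Lrrc8a and Lrrc8d ran opposite to each other. With batch means removed from log2 CPM, Pearson's r was -0.927 between Lrrc8a and Lrrc8d over the 16 libraries. It was -0.948 with the mean of each group within its batch removed instead. Lrrc8a and Lrrc8b had an r of -0.67, which was 0.254 once the means of each group within its batch were removed. A library alone in its group and batch adds nothing to -0.948 or 0.254. The 3 libraries of high Lrrc8a weigh heavily in the values with batch means removed. In the -0.948 the female ones among them add little, since they share group and batch, at 24.49 and 24.63 CPM of Lrrc8a. The male rapamycin libraries of the same batch weigh most there. All pairs share library and depth, and these values are descriptions.

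The genes whose pattern was most like that of Lrrc8a by the same measure were Tspan7 (r = 0.942), Psmb6 (0.938), Ndufb9 (0.935), Pfdn2 (0.933) and Tsen15 (0.933). Psmb6 encodes a proteasome subunit, Ndufb9 a subunit of respiratory complex I, and Pfdn2 a prefoldin subunit. For Lrrc8b they were Csrnp3 (0.965) and Ttll7 (0.96), for Lrrc8c Arhgap21 (0.89) and Nsd1 (0.888), and for Lrrc8d Ncam2 (0.944) and Lrpprc (0.93). The diet difference was part of the patterns by which these 11 genes were picked, so their diet values are descriptions. Ncam2, a neural cell adhesion molecule, was the 1 called between diets, with a log2 fold change of -1.17, where 2.26% of all genes were called. Nothing is read from that count.

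The neighbours did not pass the test. Beside Lrrc8a, Phyhd1, 2413 bases downstream, had a log2 fold change of 0.43 (SE 0.258, adjusted p = 0.273, edgeR), Ccbl1 upstream had 0.20 (adjusted p = 0.293, edgeR), and the antisense gene 1700084E18Rik had 0.71 (SE 0.409, adjusted p = 0.254, edgeR) at its low level. Around the cluster, Gbp11 had 0.11 (adjusted p = 0.877) and Zfp326 0.11 (adjusted p = 0.349) in edgeR. Beside Lrrc8e, Prr36 had -0.12 and Map2k7 0.04.

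Other genes of chloride and volume control were counted by list, beside all genes, of which 2.26% were called and 13.3% passed by adjusted p alone. With lists this short, the counts below are not read as results about these genes. Of 27 tested genes of other anion channels, 0 were called, while by adjusted p alone in edgeR 1 was higher and 4 were lower, with a median log2 fold change of -0.06 beside 0.02 over all genes. Those 5 were Ttyh1, a tweety-family membrane protein of astrocytes (0.27), Ano3, an anoctamin (-0.50, adjusted p = 0.00879), and the intracellular chloride-proton exchangers Clcn3 (-0.30), Clcn5 (-0.42) and Clcn6 (-0.22). Of 12 pannexin and connexin genes 0 were called, and Gjb6, the astrocytic connexin 30, was higher at 0.47 (SE 0.0925, adjusted p = 0.0119, edgeR), while Gja1, connexin 43, had 0.28 (adjusted p = 0.156, edgeR).

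Of 13 genes of cation-chloride transport and its kinases 0 were called, and Slc12a5, the neuronal chloride extruder KCC2, was lower at -0.30 (SE 0.0806, adjusted p = 0.0252, edgeR). Wnk3, a kinase of the same pathway, had -0.40 (adjusted p = 0.0619, edgeR). Of 15 genes of osmolytes, water channels and osmotic stress 1 was called, Aqp1, an aquaporin of choroid plexus, at -1.73 (SE 0.523, adjusted p = 0.0382, edgeR). It was highest in male vehicle 4, the library with the most choroid plexus markers, and without that library its value was -0.64 and not called (adjusted p = 0.365, edgeR). Slc6a6, the taurine transporter, had -0.25 (adjusted p = 0.0606, edgeR). Of 5 genes of cGAMP sensing 0 passed, and those of smallest p were the kinase Tbk1 (-0.21, adjusted p = 0.0514, edgeR) and the factor Irf3 (0.37, adjusted p = 0.0624, edgeR).

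Cell type markers were counted in the same way, beside the same shares over all genes. Of the 10 astrocyte markers 0 were called and 2 were higher by adjusted p alone, Gjb6 and Aldoc (0.40), and summed levels were 4740 to 6810 CPM in vehicle and 4440 to 7410 in rapamycin libraries. Of 10 microglial, 10 oligodendrocyte and 10 GABAergic neuron markers 0 passed. Endothelial markers had 1 call, Ly6c1 (0.59, higher), and Kdr was lower by adjusted p alone (-0.49). Of 10 choroid plexus markers 4 were called lower, beside the 2.26% of all genes called, and 0 of 10 without male vehicle 4, the library at 1976 CPM. Their sums were otherwise 15.9 to 334.4 CPM in vehicle and 25.5 to 195 in rapamycin libraries. Of 6 oligodendrocyte precursor, 8 pericyte and smooth muscle, 8 leptomeningeal and 5 blood markers 0 passed. No listed cell type had all its markers at 0 in all libraries, and their part in the Lrrc8 values was not tested.

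The Lrrc8a value was then recomputed under each other setting. The estimate was above 0 in all, from 0.24 (SE 0.147, slope covariate) to 0.76, and was called in 15 of the 16 fits that left out 1 library. These fits reuse the libraries in which the study picked Lrrc8a, so they are descriptions. Leaving out 1 library does not remove the 3 libraries of lowest slope together, without which it was not called. Among the fits that left out 1 library, the exception was that without male rapamycin 2, at 0.57, where the fold was just under the threshold.

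**Figure D5:**
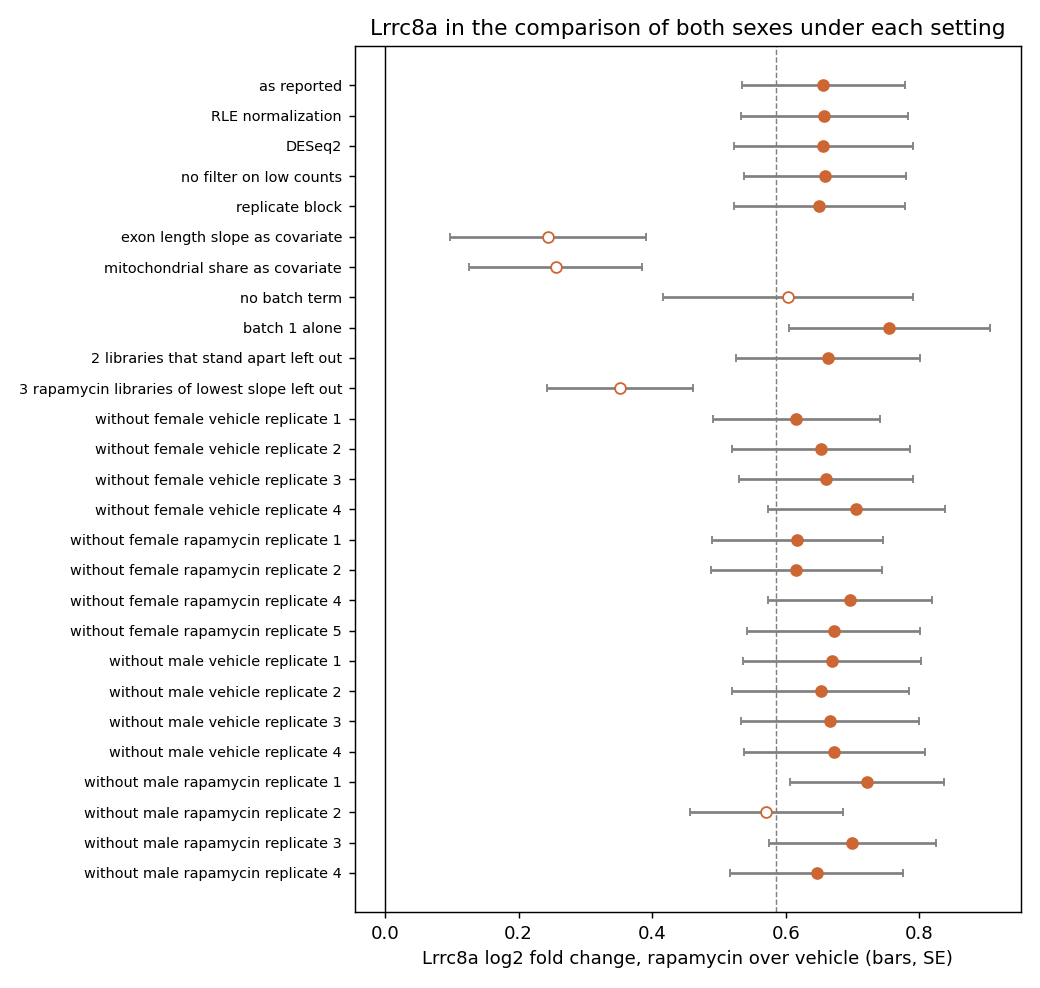
Log2 fold change of Lrrc8a, rapamycin over vehicle in both sexes, with its SE under each setting, filled where called and open where not, with a dashed line at 1.5-fold. Open points are the 2 covariate fits at 0.24 and 0.26, the fit without the batch term at 0.60, that without the 3 libraries of lowest slope at 0.35, and that without male rapamycin 2 at 0.57.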

How the data were processed

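The deposited counts are read pairs per gene, made by the authors from polyA-selected paired-end libraries, with no normalization or filter. The submitters' processing notes name FastQC 0.11.9, Trimmomatic 0.39, HISAT2 2.2.1 and featureCounts 2.0.3, and the file header gives unstranded counting of pairs over exons by gene name. A pair that hits exons of several genes equally is lost, which touches Lrrc8a. The group tables repeat the counts, with 0 differing cells.

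Counts were analysed in R 4.3.3 with edgeR 4.0.16 (TMM factors, filterByExpr with a minimum count of 10, quasi-likelihood test). The terms were sex, batch and diet for both sexes together and for batch, and the 4 groups and batch otherwise. P-values were Benjamini-Hochberg adjusted across the 16553 tested genes, and a call needed an adjusted p below 0.05 together with a change of 1.5-fold or more. Log2 CPM for correlations had a prior count of 2. The script was tested on simulated data. Alternatives were RLE scaling, DESeq2 1.42.0, no count filter, covariates, other terms and left-out libraries, and 7 were added after the data were seen. Members and lists were chosen with earlier results of these data known. Named genes were the members, list genes called or else the 2 of smallest p, the 5 or 2 genes of most similar pattern, and the neighbours, with other list genes under an adjusted p of 0.05 added after their values were seen. The result of 1 marker is not reported here. With group means removed, 18 of the 21 pairs of equally numbered libraries had a correlation over 0.1 (range -0.157 to 0.675). Number 4 occurs in batch 2 alone, and with batch means removed too the 15 pairs of numbers 1 to 3 ran from -0.222 to 0.366, 7 of them over 0.1, so the numbers were not taken as pairs. No 2 libraries of a group held like counts. Promoters were read from RefSeq windows with Python 3.11.15, and exons and coding bases from the count table and GENCODE M21.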

Additional observations from a re-analysis of the deposited data

How the results depend on the processing

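Read pairs per library, 151 to 480 for Lrrc8a, and 4 libraries per group limit what could be seen, and the 2 batches and 3 libraries of unusual RNA make-up limit Lrrc8a most. For both sexes together, 1 member was called as reported, and 0 with the slope covariate, the mitochondrial covariate, no batch term, or without the 3 libraries of lowest slope (chosen after seeing the data). Leaving out 1 library gave 0 to 1. In females, 0 became 1 with DESeq2 or no count filter and 2 in batch 1 alone (Lrrc8a 0.97, Lrrc8b -0.65), and 0 to 2 with 1 library left out, the 2 without female rapamycin 4 and 1 without male rapamycin 2. In males, 0 became 1 with no count filter. Between batches, 1 became 0 with either covariate (Lrrc8a -0.35 and -0.33). For the interaction and for sex in vehicle, 0 members were called under all settings run. The causes were not tested.

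With the replicate block, the log2 fold changes for both sexes were 0.65, -0.36, -0.08 and -0.27 for Lrrc8a to Lrrc8d, 291 genes were called in place of 374, and no member's call changed, while Lrrc8c in females turned to 0.0076 and Aqp1 lost its call.

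Signs turned in several values, such as Lrrc8c in females, which went from -0.10 to 0.27 (SE 0.158) with the slope covariate. With the slope covariate Lrrc8c had 0.13 in both sexes, 0.27 in females and 0.0696 in males, Lrrc8a -0.068 in the interaction, and Lrrc8b -0.10 and Lrrc8d -0.0945 between batches. With the mitochondrial covariate Lrrc8a had -0.14 for sex in vehicle and Lrrc8d -0.0798 between batches. In batch 1 alone Lrrc8c had 0.0151 in males and -0.11 in the interaction, and for sex in vehicle Lrrc8a had -0.0491 and Lrrc8b 0.0336. Lrrc8d between batches had -0.0025 with RLE scaling, -0.0058 with DESeq2 and -0.0061 with no count filter. With 1 library left out, values ran from -0.0828 to 0.11 (Lrrc8a), -0.15 to 0.0378 (Lrrc8b) and -0.16 to 0.0083 (Lrrc8c) for sex in vehicle, from -0.0128 to 0.28 (Lrrc8a) and -0.11 to 0.12 (Lrrc8c) in the interaction, and from -0.0039 to 0.11 (Lrrc8b), -0.18 to 0.00596 (Lrrc8c) and -0.037 to 0.0454 (Lrrc8d) between batches.

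Counts over all genes moved more. For both sexes, 374 became 586 with no count filter, 36 without the batch term, 0 with either covariate, 1 without the 3 libraries, and 156 to 571 with 1 library left out (156 without female rapamycin 1). In females 2 became 568 with DESeq2, 806 with no filter, 977 in batch 1 alone and 1 to 941 with 1 library left out. In males 0 became 84 with DESeq2 and 347 with no filter, for the interaction 25 and 87, and for sex in vehicle 2 became 29 and 118, with 0 to 6 under left-out libraries. Between batches 2140 became 878 and 940 with the covariates.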
